A study of Mus musculus with 8 samples.

Results

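The 8 genes described here encode the core of the nutrient-sensing mTOR and AMPK system: Mtor, Rptor, Rictor, Tsc1, Tsc2, Prkaa1, Prkaa2 and Rps6kb1. They were chosen by name as members of this system, with no threshold on their values, and are 8 of the 21951 protein-coding genes of the GENCODE M21 annotation. A peak counted for a gene when it overlapped the gene body by 1 bp on either strand. Over the 8 genes lay 36 of 38209 peaks in the fasted list, 77 of 61737 at 2 h, 53 of 50609 at 10 h and 51 of 55946 in the IgG list.

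The peaks came from RNA immunoprecipitation and sequencing (RIP-seq) of nuclear lysates of mouse liver. The antibody was against NONO, which binds RNA and sits in paraspeckles, bodies of the nucleus. The mice were 14 weeks old, of strain C57BL/6 and wild type, and ate only while it was dark (12 h light, 12 h dark). The 3 NONO groups were fasted livers at zeitgeber time 10, livers re-fed for 2 h (zeitgeber time 14), and livers re-fed for 10 h (zeitgeber time 22); the control was 1 immunoprecipitate with IgG, whose feeding state the labels do not give. Each of the 4 immunoprecipitates had 1 input library, and each library pooled 2 experiments. Feeding and time of day changed together and cannot be told apart. With 1 library per group there is no replicate error, so no p-value is given; intervals are exact 95% Poisson or binomial intervals and cover counting error only.

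mTOR is a kinase that works in 2 complexes. The complex with raptor (the product of Rptor) promotes protein synthesis when amino acids and insulin are plentiful, and the complex with rictor (from Rictor) phosphorylates Akt. The TSC1 and TSC2 proteins restrain the raptor complex. AMPK, whose catalytic subunits come from Prkaa1 and Prkaa2, is active when energy is low and inhibits the raptor complex through TSC2 and raptor. S6 kinase, from Rps6kb1, is a main target of the raptor complex. In liver the system couples feeding to protein, lipid and glucose metabolism.

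The libraries held 18275033 to 21091048 tags (aligned reads). Peaks held 11.6% of the fasted, 26% of the 2 h, 17.3% of the 10 h and 53.2% of the IgG tags, and a single IgG peak over Rn7sk held 37.5% of the IgG library. Levels below are tags under peaks per 10000000 tags of the library ("normalised tags"); a gene without a peak has no level, which does not mean that it had no tags. Each level sums tags under the peaks of its own list, and tags outside them are not counted. A ratio of 2 levels therefore compares called signal, often at different places, and moves with the length of gene that was called, which is given beside it with the mean density in normalised tags per kb of peak. Of 8 hepatocyte markers, 3, 4 and 5 had a peak in the fasted, 2 h and 10 h lists and 7 in the IgG list, with 5929.8, 10338.5, 14138.9 and 19200.2 normalised tags in all. Cps1 gave most of each NONO sum, with 3763.2, 6906.1 and 11168.9 normalised tags at the 3 times, and the other markers did not share 1 course. Tdo2 fell, with 1991.6, 909 and 236, and Apob and Tat were highest at 2 h among the NONO lists. Apoa1 had a peak in no list, and Alb and Cyp2e1 none in the fasted and 2 h lists. The 4 cholangiocyte markers were without a peak in every list. The 4 endothelial markers summed to 299, 665, 726 and 294 normalised tags in the same order, the 4 Kupffer cell markers to 23.8, 6.16, 60.8 and 7.38, and the 4 stellate cell markers to 47.1, 40.8, 82 and 2430.8. Single genes gave most of some sums: Stab2 held 255, 528, 499 and 265 of the endothelial tags, and Reln 2081.1 of the stellate IgG tags. Pecam1, Des and Krt19 had no peak in any list. The part of these differences in the results below was not tested. In whole-liver nuclei, fewer cells of a type and less RNA per cell cannot be told apart.

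Most peaks lay in introns, in the NONO and IgG lists alike. Of the 166 NONO peaks over the 8 genes, 156 had their midpoint in an intron, 5 in an exon of a non-coding transcript, 3 in an untranslated exon, 1 in a coding exon and 1 just beyond the end of Rps6kb1, and 148 touched no exon at all. Of the 51 IgG peaks over these genes, 48 had their midpoint in an intron and 41 touched no exon. The intron share of peaks over all protein-coding genes was not computed. Letters are shown for 7 stretches that annotated transcripts spell out, chosen after the values were seen. These stretches are introns kept in an annotated transcript (retained introns) and coding exons inside or at the edge of a peak. They do not stand for the peaks that touch no exon, and whether the introns were retained in these livers was not tested. They come from GENCODE M21 transcripts on GRCm38 (mm10), run 5′ to 3′ on the gene's strand, and have coding bases in capitals.

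The first Rictor stretch lies in an IgG-free fasted peak, and the second lies where all 3 NONO lists and the IgG list had a peak. They have a GC share of 44.5% and 33.5%.
Rictor retained intron, chr15:6758081-6758280, plus strand: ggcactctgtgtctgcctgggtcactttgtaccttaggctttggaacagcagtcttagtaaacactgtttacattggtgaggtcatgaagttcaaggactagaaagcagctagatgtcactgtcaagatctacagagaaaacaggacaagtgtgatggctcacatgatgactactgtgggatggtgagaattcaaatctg
Rictor retained intron, chr15:6780188-6780387, plus strand: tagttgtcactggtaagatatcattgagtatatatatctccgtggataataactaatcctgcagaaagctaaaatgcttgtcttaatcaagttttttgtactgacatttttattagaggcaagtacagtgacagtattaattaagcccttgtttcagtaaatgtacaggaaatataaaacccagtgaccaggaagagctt

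The stretches of Tsc1 and Tsc2 lie in IgG-free peaks of the fasted and the 2 h list, with a GC share of 46.5% and 55%.
Tsc1 retained intron, chr2:28667375-28667574, plus strand: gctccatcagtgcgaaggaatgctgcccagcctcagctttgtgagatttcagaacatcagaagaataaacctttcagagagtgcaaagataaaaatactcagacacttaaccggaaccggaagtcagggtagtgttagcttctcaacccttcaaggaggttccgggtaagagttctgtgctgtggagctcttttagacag
Tsc2 retained intron, chr17:24605217-24605416, minus strand: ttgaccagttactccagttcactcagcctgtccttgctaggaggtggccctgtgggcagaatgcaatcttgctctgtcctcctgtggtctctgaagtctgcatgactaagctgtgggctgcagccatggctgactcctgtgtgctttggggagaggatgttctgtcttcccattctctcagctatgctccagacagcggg

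Both Prkaa2 stretches are coding. The 88 bases lie inside the most tagged IgG-free peak of Prkaa2 at 2 h and belong to the exon that encodes the activation loop of the kinase, and the 26 bases lie at the edge of a fasted peak in a region found at all 3 times.
Prkaa2 exon, chr4:105049334-105049421, minus strand: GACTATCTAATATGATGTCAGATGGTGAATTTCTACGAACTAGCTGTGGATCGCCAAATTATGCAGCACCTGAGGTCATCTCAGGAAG
Prkaa2 exon edge, chr4:105075414-105075439, minus strand: TTTCGTCATCCTCATATTATCAAACT

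The Rps6kb1 stretch crosses from 18 coding bases into the intron behind them, in a 10 h peak that an IgG peak met, and has a GC share of 35.3%.
Rps6kb1 retained intron, chr11:86519644-86519909, minus strand: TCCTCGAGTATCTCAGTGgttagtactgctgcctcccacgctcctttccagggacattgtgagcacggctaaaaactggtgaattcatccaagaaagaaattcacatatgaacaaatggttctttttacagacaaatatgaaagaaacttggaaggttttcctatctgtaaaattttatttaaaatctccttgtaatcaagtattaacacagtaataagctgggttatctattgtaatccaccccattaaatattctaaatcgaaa

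AGGGA on the gene's strand, a sequence bound by NONO in vitro, occurs in 1 of the 7 stretches, that of Rps6kb1. It also occurs in 22.2% of the central 200-base windows of 21826 retained-intron transcripts. The stretches are not all of that length or kind, with 266 bases for Rps6kb1 and 88 and 26 coding bases for Prkaa2. The match describes these letters, and binding there was not tested.

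A NONO peak is called IgG-free here if it shares no base with an IgG peak. Such a peak lay over 7 of the 8 genes in the fasted list and over all 8 at 2 h and at 10 h, and Mtor was the gene without one in the fasted list. Of all protein-coding genes, 26.4% had one in fasted livers, 31.3% at 2 h and 30.0% at 10 h. The genes are long, from 36.8 kb (Tsc2) to 297 kb (Rptor), and among genes within 1.5 times their length 43.8% to 55% had one in the fasted list, 48.6% to 58.9% at 2 h and 47.3% to 58.1% at 10 h. The IgG list had a peak over 7 of the 8 genes, all but Tsc2, against 34.6% of all protein-coding genes and 51.5% to 60.7% of genes of like length.

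**Figure D1:**
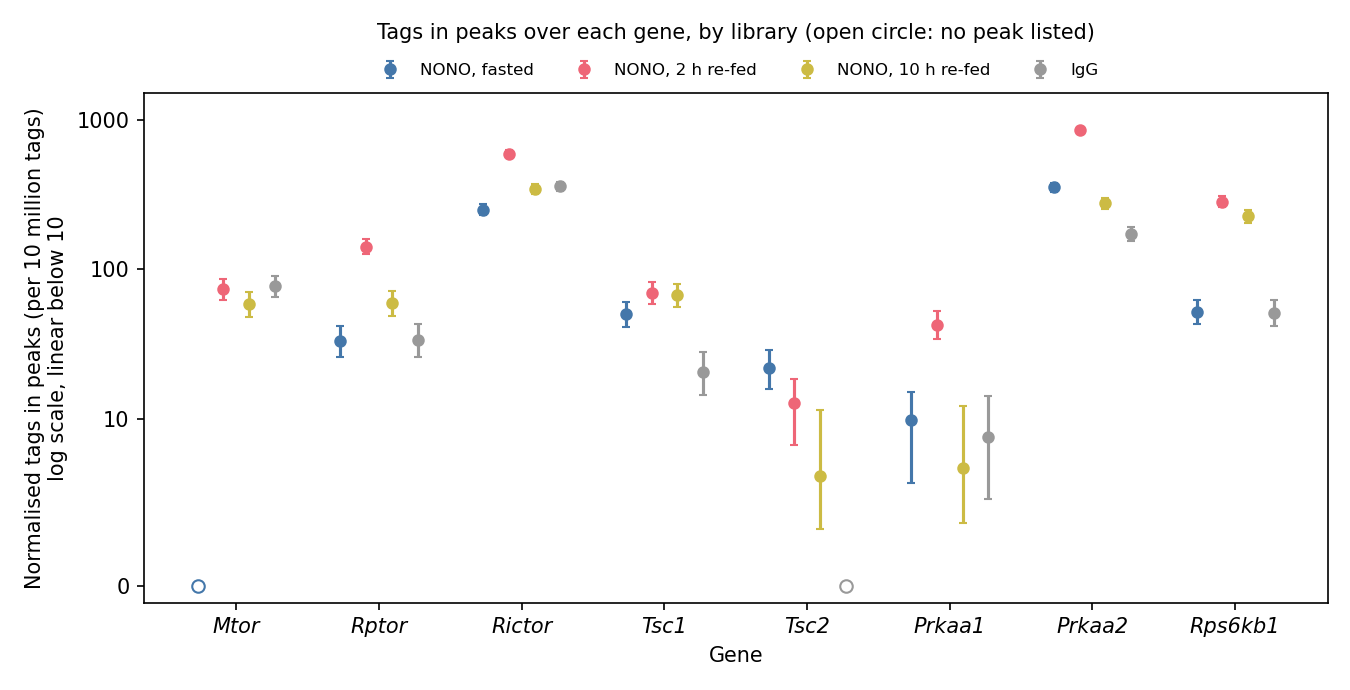
Normalised tags in peaks (vertical axis, per 10000000 library tags, log scale, linear below 10) over each gene in the fasted, 2 h, 10 h and IgG libraries, with exact 95% Poisson intervals (counting error only); an open circle marks a gene with no listed peak. Among the NONO libraries 7 of the 8 genes are highest at 2 h, Prkaa2 with 855 and Rictor with 591, and Tsc2 is highest in fasted livers with 21.9.

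Mtor, the kinase itself (chromosome 4, 148448611 to 148557683, plus strand, 58 exons), had 0, 5 and 4 peaks at the 3 times (fasted, 2 h and 10 h) and 6 with IgG. Its normalised tags were 74 (62.8 to 86.5) at 2 h, 58.5 (48 to 70.8) at 10 h and 77.4 (65.4 to 91) with IgG. These intervals overlapped one another, but per 10000000 tags outside the Rn7sk peak the IgG level was 124, and the NONO levels were 0.598 (2 h) and 0.473 (10 h) times that. The peaks covered 4200 bp at 2 h, 3573 bp at 10 h and 3704 bp with IgG, at 17.6, 16.4 and 20.9 per kb. No fold against the fasted library can be given for Mtor. All 9 NONO peaks were intronic and none was met by an IgG peak. The strongest lay in the first intron at both re-fed times, from 148449467 to 148451507 with 42.7 normalised tags at 2 h and from 148449802 to 148451741 with 31.7 at 10 h. The authors' fold over input there was 3.06 at 2 h and 2.52 at 10 h. The other 7 NONO peaks held 4.92 to 14.8 normalised tags each and lay at separate places. The most tagged IgG peak of the gene, from 148527838 to 148528463 with 46.3 normalised tags, had no NONO peak over it. Among all genes of like length, with those without a peak counted as 0, the median was 18.5, 38, 32.8 and 22.1 normalised tags. These values are for the fasted, 2 h, 10 h and IgG lists.

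Rptor, the substrate-recruiting subunit of the raptor complex (chromosome 11, 119602905 to 119899576, plus strand, 34 exons), had 4, 17 and 5 peaks in the fasted, 2 h and 10 h lists and 6 with IgG. Its normalised tags were 33.3 (25.9 to 42), 142 (127 to 159) and 59.6 (49 to 71.9) at the 3 times and 33.7 (25.9 to 43) with IgG. The 2 h level stood apart from the other 3, at 4.27 times the fasted level (3.28 to 5.63), and the 10 h level was 0.419 times the 2 h level (0.334 to 0.524). Peaks covered 2257, 10430 and 4010 bp at the 3 times and 3291 bp with IgG, while their density was 14.8, 13.7 and 14.9 per kb and 10.3 with IgG. Outside the Rn7sk peak the IgG level was 53.9, and the NONO levels were 0.618, 2.64 and 1.11 times that. The 2 h signal was made of many weak peaks of 5.69 to 14.2 normalised tags, spread along most of the gene, and 16 of the 17 were IgG-free. Only 1 IgG-free 2 h peak, of 8.06 normalised tags, was left when each list was cut to the same number of peaks by score, and the log2 ratio then turned to -1.26 at 2 h over fasted and to 1.42 at 10 h over 2 h. The 22 regions found at 1 time only stood against 2 found at 2 times and none at all 3. Per kb of gene the level stayed low, at 0.112, 0.479 and 0.201 normalised tags at the 3 times and 0.114 with IgG.

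Rictor, the defining subunit of the Akt-directed complex (chromosome 15, 6708379 to 6800401, plus strand, 38 exons), had peaks in every list, with 3 regions found at all times outside IgG peaks. There were 12, 19 and 19 peaks at the 3 times and 18 with IgG, with 251 (230 to 273), 591 (559 to 625) and 344 (318 to 372) normalised tags and 358 (332 to 386) with IgG. The 10 h and IgG intervals overlapped, the fasted level lay below both and the 2 h level above both. Medians of like-length genes, those without a peak included, were 17.6, 35.1, 29 and 20 normalised tags in the same order. They were far below Rictor in the IgG list as well. The 2 h level was 2.36 times the fasted level (2.13 to 2.61), and in IgG-free peaks alone it was 244 against 163 normalised tags, a log2 ratio of 0.55 in place of 1.20. Peaks covered 9505, 24888 and 14205 bp at the 3 times and 20643 bp with IgG, at 26.4, 23.8 and 24.3 per kb and 17.4 with IgG. Against IgG, Rictor held 0.7, 1.65 and 0.96 times the IgG level at the 3 times, or 0.438, 1.03 and 0.6 times when IgG tags are counted per 10000000 tags outside the Rn7sk peak.

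Along Rictor, a larger share of IgG than of NONO peaks lay beyond the middle of the gene. Of 18 IgG peaks, 12 had their midpoint there, against 18 of the 50 NONO peaks (6 of 12 fasted, 7 of 19 at 2 h, 5 of 19 at 10 h). For all 8 genes together it was 26 of 51 IgG and 64 of 166 NONO peaks. The IgG share was the lower one in Prkaa2 (4 of 14 against 14 of 41) and Rps6kb1 (1 of 3 against 6 of 16). In Rictor, IgG peaks touched a coding exon in 7 of 18 cases, against 1 of 50 NONO peaks. Over all 8 genes, 8 of 166 NONO peaks and 9 of 51 IgG peaks touched a coding exon. By time the NONO share was 2.78% (0.0703 to 14.5), 6.49% (2.14 to 14.5) and 3.77% (0.46 to 13), near the 6.28%, 7.89% and 4.62% of NONO peaks over all protein-coding genes. The IgG share was 17.6% (8.4 to 30.9), beside 9.18% of IgG peaks over all protein-coding genes. The IgG-free regions of Rictor that recurred at all 3 times lay at 6711487 to 6712753, with 36.1, 10.9 and 24.6 normalised tags in order of time, at 6717363 to 6720631, with 28.5, 65 and 28.5, and at 6770534 to 6772129, with 9.03, 15.2 and 11.5. Each library was highest in at least 1 of these regions except the 10 h library. The region of the second printed stretch held 55.2, 45 and 43.2 normalised tags and had an IgG peak of 34.7.

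**Figure D2:**
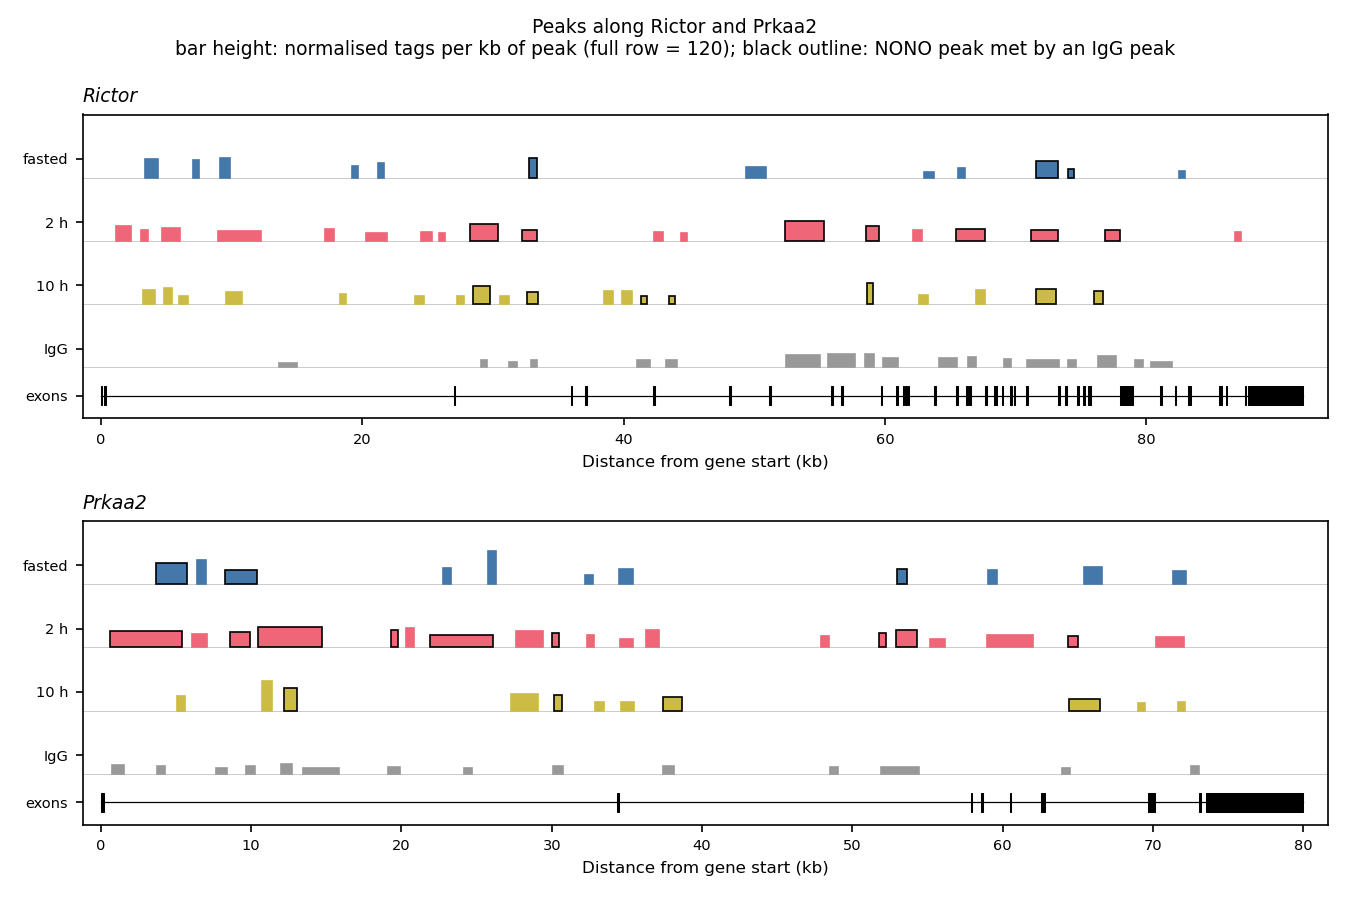
Peaks of the fasted, 2 h, 10 h and IgG lists along Rictor and Prkaa2 (horizontal axis, distance from the gene start in kb); bar height is normalised tags per kb of peak, a black outline marks a NONO peak met by an IgG peak, and black boxes are exons. IgG peaks over Rictor crowd into the exon-dense part of the gene (12 of 18 beyond its middle), and 22 of the 41 NONO peaks over Prkaa2 lie in its long first intron.

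By distance over the 4 lists, in log2 of normalised tags plus 10, the protein-coding genes of like length closest to Rictor were Apc (distance 0.20), Ldah (0.24) and Naa16 (0.28). Apc had 282, 641 and 345 normalised tags at the 3 times and 363 with IgG. Ldah had 285, 659 and 360 and 360 with IgG, and Naa16 had 220, 630 and 344 and 412 with IgG.

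Tsc1 and Tsc2 encode the 2 subunits of the complex that holds Rheb, the activator of mTOR, in its inactive state. Tsc1 (chromosome 2, 28641228 to 28691167, plus strand, 23 exons) had 4, 4 and 5 peaks at the 3 times and 3 with IgG. They held 50.5 (41.3 to 61), 69.8 (58.9 to 81.9) and 67.3 (55.9 to 80.3) normalised tags at the 3 times and 20.6 (14.6 to 28.1) with IgG. The intervals of the 3 NONO libraries overlapped each other and all lay above that of IgG, at 2.45, 3.39 and 3.27 times its level, or 1.53, 2.12 and 2.05 times outside the Rn7sk peak. Peaks covered 2289, 4107 and 3008 bp and 1629 bp with IgG, at 22.1, 17 and 22.4 per kb and 12.7 with IgG. No NONO peak of Tsc1 was met by an IgG peak. In the first intron a shared region held 28 normalised tags at 2 h (28643576 to 28645109) and 21.9 at 10 h (28643627 to 28644456), and the fasted list had no peak in that intron. At 10 h, 3 of 5 peaks lay in it.

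Tsc2 (chromosome 17, 24595816 to 24632630, minus strand, 40 exons) had 2, 2 and 1 peaks at the 3 times and none with IgG. Its normalised tags were 21.9 (16 to 29.2), 12.8 (8.44 to 18.6) and 6.57 (3.39 to 11.5), from 46, 27 and 12 tags. It was the only gene of the 8 whose 2 h level lay below its fasted level, at 0.585 times (0.35 to 0.962), and the 10 h level was 0.3 times the fasted level (0.145 to 0.576). Peaks covered 1326, 1002 and 501 bp at the 3 times, at 16.5, 12.8 and 13.1 per kb. None of its 5 peaks overlapped another, so no place in Tsc2 was found at more than 1 time. The 31.22-fold over input of its 10 h peak rests on 0.4 input tags. Neither ratio passed 2-fold once 10 normalised tags were added to both levels, with log2 ratios of -0.48 at 2 h and -0.94 at 10 h.

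Prkaa1 and Prkaa2 encode the alternative catalytic subunits of AMPK, and both serve in liver. Prkaa1 (chromosome 15, 5143861 to 5181899, plus strand, 9 exons) had 1, 4 and 1 peaks at the 3 times and 1 with IgG. These peaks held 9.98 (6.18 to 15.3), 42.6 (34.3 to 52.5) and 7.11 (3.79 to 12.2) normalised tags at the 3 times and 8.95 (5.21 to 14.3) with IgG. The 2 h level stood above the other 3, whose intervals overlapped. The 2 h level was 4.27 times the fasted level (2.64 to 7.24), and the 10 h level was 0.167 times the 2 h level (0.0855 to 0.3). The largest 2 h peak, 21.3 normalised tags from 5181077 to 5181577, lay in the last exon where Gm15938 overlaps, so its reads cannot be given to 1 of the genes. Without it the log2 ratio was 0.65 in place of 1.40 at 2 h over fasted and -0.87 in place of -1.62 at 10 h over 2 h, and neither passed 2-fold. Peaks covered 501, 2164 and 501 bp and 691 bp with IgG, at 20, 19.7 and 14.2 per kb and 13 with IgG. Outside the Rn7sk peak the NONO levels were 0.697, 2.98 and 0.497 times the IgG level of 14.3. Each NONO list had 1 peak in the first intron.

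Prkaa2 (chromosome 4, 105029874 to 105109890, minus strand, 9 exons) carried the highest level per kb of gene in fasted and 2 h livers. It had 11, 19 and 11 peaks at the 3 times and 14 with IgG. Its normalised tags were 353 (328 to 380), 855 (816 to 895) and 276 (252 to 301) at the 3 times and 173 (154 to 192) with IgG. All 4 intervals were apart, with 2 h highest and IgG lowest. Like-length genes, those without a peak included, had medians of 15.7, 31.8, 26.5 and 17.9 normalised tags. The 2 h level was 2.42 times the fasted level (2.22 to 2.64), the 10 h level was 0.323 times the 2 h level (0.292 to 0.356), and the 10 h level was 0.781 times the fasted level (0.696 to 0.875). Peaks covered 10643, 30048 and 10075 bp at the 3 times and 12616 bp with IgG (13.3%, 37.6%, 12.6% and 15.8% of the gene), at 33.2, 28.5 and 27.4 per kb and 13.7 with IgG.

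Much of the Prkaa2 signal lay in its first intron, which held 6 of 11, 10 of 19 and 6 of 11 NONO peaks and 9 of 14 IgG peaks. The most tagged NONO peaks at 2 h, from 105095153 to 105099435 with 169.7 and from 105104469 to 105109288 with 153.6 normalised tags, were both in that intron and both met by IgG peaks. In IgG-free peaks alone the levels were 195, 288 and 146 normalised tags, and the log2 ratio of 2 h over fasted was 0.54 in place of 1.25 and that of 10 h over 2 h was -0.94 in place of -1.60. With IgG tags counted outside the Rn7sk peak, the whole levels were 1.28, 3.09 and 0.998 times the IgG level. The IgG-free regions present at all 3 times were 105037694 to 105039657, with 22.8, 34.6 and 8.21 normalised tags, and 105074417 to 105075439, with 27.6, 13.7 and 14.8. The second of these borders the exon of the 26 printed bases. The printed 88-base exon lay under a 2 h peak of 71.1 normalised tags.

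Rps6kb1, the gene of S6 kinase (chromosome 11, 86498871 to 86544805, minus strand, 15 exons), had 2, 7 and 7 peaks at the 3 times and 3 with IgG. Its normalised tags were 52.3 (43 to 63), 284 (262 to 308) and 227 (205 to 249) at the 3 times and 51.6 (41.9 to 62.9) with IgG. The fasted and IgG levels lay within each other's intervals and both re-fed levels stood above them. Outside the Rn7sk peak the IgG level was 82.5, and the NONO levels were 0.634, 3.44 and 2.75 times that. The 2 h level was 5.43 times the fasted level (4.42 to 6.72), and the 10 h level was 4.33 times the fasted level (3.5 to 5.4). No fasted region of Rps6kb1 overlapped a re-fed one, so these ratios set different places side by side. Peaks covered 1002, 10008 and 4405 bp and 3120 bp with IgG, at 52.3, 28.4 and 47.9 per kb and 16.5 with IgG. It is the only one of the 7 genes with fasted peaks whose log2 ratio passed 2-fold at both re-fed times, with 2.24 at 2 h and 1.93 at 10 h, but at 3-fold or more over input the 2 h value was 0.73 and no longer past 2-fold. The IgG-free peaks held 52.3, 161 and 164 normalised tags.

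The 2 re-fed libraries reached their Rps6kb1 levels at different places. At 2 h the most tagged peak was intronic, from 86516711 to 86519649, with 122.8 normalised tags, 2.07-fold over input and an IgG peak under it. At 10 h the most tagged was in the last, untranslated exon, from 86499983 to 86500772, with 84.8 normalised tags and 2.15-fold, and it was IgG-free. A further 10 h peak of 36.7 normalised tags lay across the gene end, where Rnft1 overlaps. Neither the fasted nor the 2 h list nor the IgG list had a peak in that exon. Both fasted peaks, of 19.5 and 32.8 normalised tags, were close to the 2-fold limit for calling a peak, at 2.06 and 2.01. Of its 15 regions 14 were found at 1 time, and the region around the printed stretch was found at 2 h and 10 h. At fold 3 or more over input, Rps6kb1 kept no fasted peak and 1 peak at each re-fed time.

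**Figure D3:**
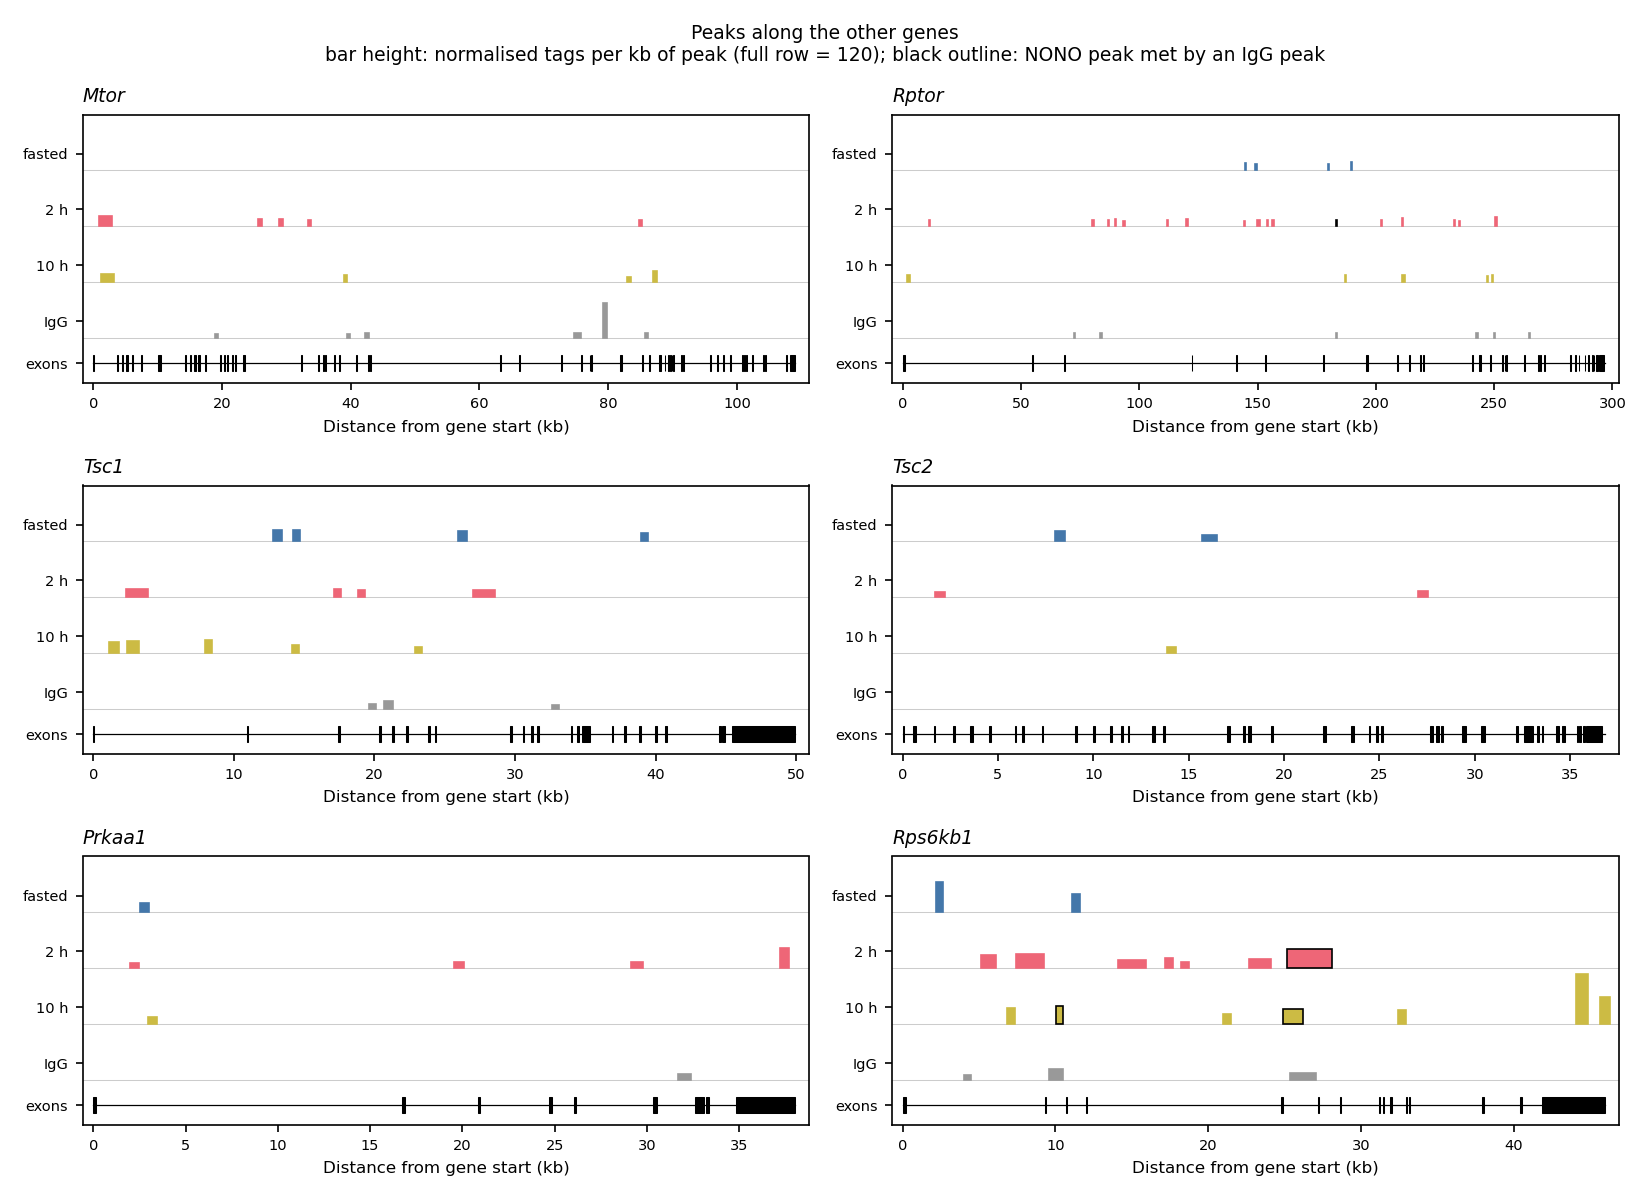
Peaks of the fasted, 2 h, 10 h and IgG lists along Mtor, Rptor, Tsc1, Tsc2, Prkaa1 and Rps6kb1, drawn as for Rictor and Prkaa2 (horizontal axis in kb from the gene start, bar height in normalised tags per kb of peak). Mtor has no fasted and Tsc2 no IgG peak, and the 10 h bars at the end of Rps6kb1 are the peaks of 84.8 and 36.7 normalised tags.

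Per kb of gene, the order of the levels was Prkaa2 (4.41), Rictor (2.73), Rps6kb1 (1.14), Tsc1 (1.01), Tsc2 (0.595), Prkaa1 (0.262) and Rptor (0.112 normalised tags per kb) in the fasted list. At 2 h it was Prkaa2 (10.7), Rictor (6.43), Rps6kb1 (6.18), Tsc1 (1.4), Prkaa1 (1.12), Mtor (0.678), Rptor (0.479) and Tsc2 (0.348). At 10 h Rps6kb1 led with 4.93, followed by Rictor (3.74), Prkaa2 (3.45), Tsc1 (1.35), Mtor (0.537), Rptor (0.201), Prkaa1 (0.187) and Tsc2 (0.178). In the IgG list it was Rictor (3.9), Prkaa2 (2.16), Rps6kb1 (1.12), Mtor (0.709), Tsc1 (0.412), Prkaa1 (0.235) and Rptor (0.114). Prkaa2, Rictor and Rps6kb1 filled the first 3 places in every list, IgG included.

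Between times, genes were compared by the log2 ratio of normalised tags plus 10, and a difference past 2-fold was counted. At 2 h over fasted, 6 of the 8 genes were past 2-fold higher (Mtor, Rptor, Rictor, Prkaa1, Prkaa2 and Rps6kb1) and none was past 2-fold lower. Of all 8086 protein-coding genes with a peak in either list, 43.4% were past 2-fold higher and 8.73% past 2-fold lower. The median log2 ratio was 1.32 over the 8 genes (1.25 without Mtor, whose value depends on the 10 added tags) and 0.85 over all genes tested. The 2 h library held more of its tags in peaks than the fasted library, and per tags in peaks the count was 2 (Mtor and Rps6kb1), with Rictor at 0.07 and Prkaa2 at 0.11. The count was 4 in IgG-free peaks alone, 4 at 3-fold over input and 4 with lists of equal length.

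At 10 h over fasted, 2 genes were past 2-fold higher (Mtor and Rps6kb1) and none lower, against 35.0% and 10.7% of 7954 genes. The median was 0.40 over the 8 genes (0.36 without Mtor) and 0.63 over all genes tested. Both comparisons use the same fasted library. At 10 h over 2 h, 3 genes were past 2-fold lower (Rptor at -1.13, Prkaa1 at -1.62 and Prkaa2 at -1.60) and none higher, against 23.7% lower and 14.7% higher of 8421 genes. Each of the 3 calls was lost under another setting, Rptor at 1.42 with lists of equal length, Prkaa1 at -0.87 without the shared-gene peak and Prkaa2 at -0.94 in IgG-free peaks. All 8 ratios were below 0, with a median of -0.61 beside -0.34 over all genes tested. Mtor, Tsc1 and Rps6kb1 were nearest to 0, at -0.29, -0.04 and -0.31.

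**Figure D4:**
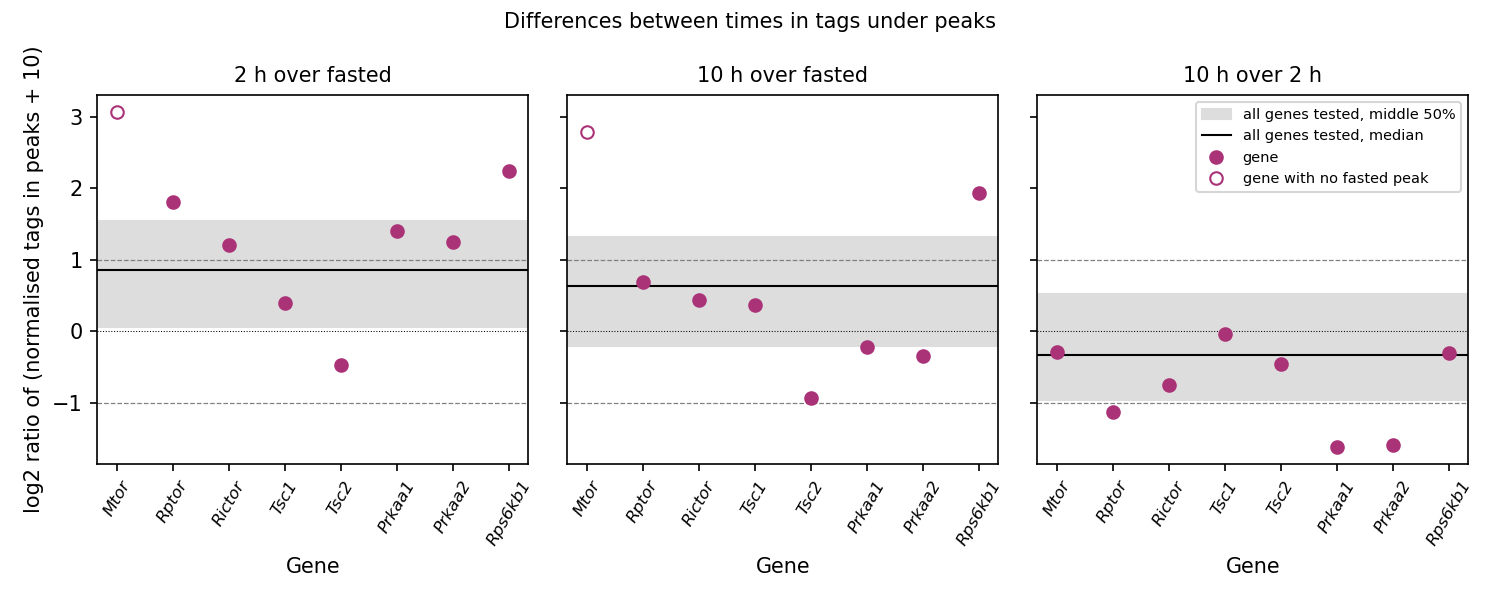
Log2 ratio of normalised tags in peaks plus 10 (vertical axis) for each gene in 3 comparisons of times, 2 h over fasted, 10 h over fasted and 10 h over 2 h, with the median (line) and middle 50% (grey) of all genes tested; dashed lines mark 2-fold and the open circle a gene with no fasted peak. Rps6kb1 lies at 2.24 and 1.93 in both comparisons with fasted livers, and all 8 genes lie below 0 at 10 h over 2 h, Tsc1 only just, at -0.04.

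Each peak had to reach 2-fold over input, so the input under a list's own peaks grows with the length called and the ratio to input cannot fall far below 2. Input tags on the same scale were 138, 342 and 103 under the Prkaa2 peaks at the 3 times and 46 under its IgG peaks, and 91.8, 219 and 119 under the Rictor peaks and 103 under its IgG peaks. The ratio of immunoprecipitate to input over all peaks of a gene was 2.56, 2.5 and 2.68 for Prkaa2 and 3.75 with IgG, 2.73, 2.7 and 2.9 for Rictor and 3.47 with IgG, and 2.03, 2.33 and 2.39 for Rps6kb1 and 3.18 with IgG. It was 4.88, 5.19 and 3.73 for Rptor and 7.81 with IgG, and 2.99, 2.86 and 3.64 for Tsc1 and 5 with IgG. For Prkaa1 it was 3.8, 3.06 and 4.19 and 8.95 with IgG. Mtor had 3.71 at 2 h, above its 3.55 with IgG, and 3.17 at 10 h. Tsc2, without an IgG peak, had 4.16, 6.43 and 30, the last from 0.4 input tags. Peaks with 3-fold or more over input numbered 17 of 36, 47 of 77 and 32 of 53 at the 3 times and 45 of 51 with IgG. The median fold of all peaks of a list was 2.82, 3.13 and 2.84 at the 3 times and 4.16 with IgG. Higher folds with IgG were thus a trait of the whole lists and not particular to these genes.

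**Figure D5:**
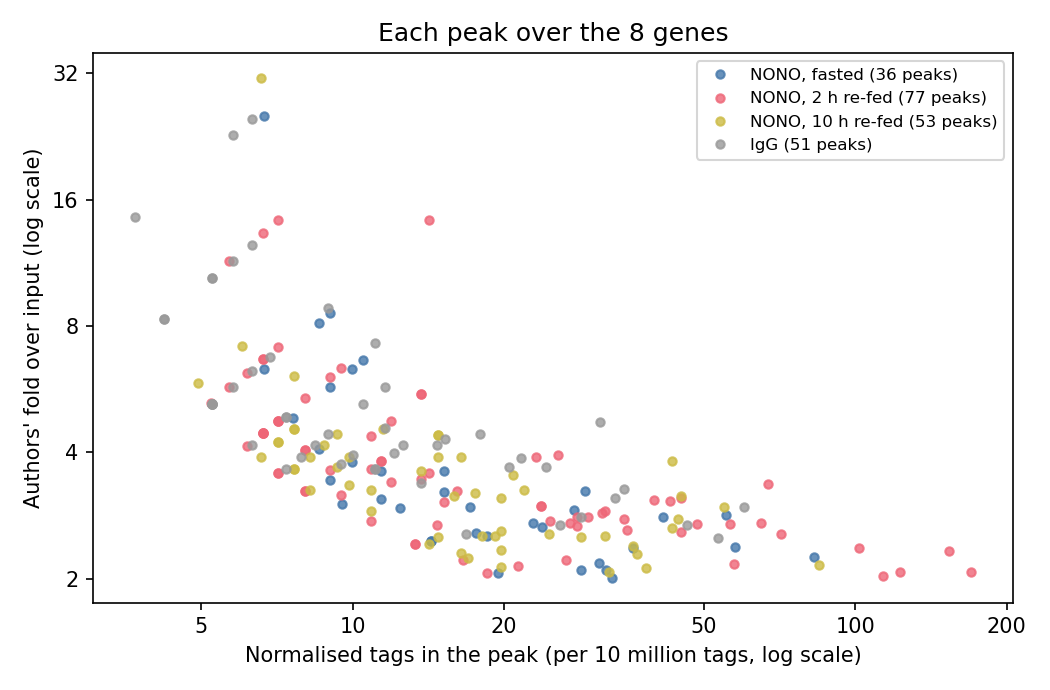
Each peak over the 8 genes, with its normalised tags (horizontal axis, per 10000000 library tags, log scale) and the authors' fold over input (vertical axis, log scale), coloured by list. The highest folds, 31.22 at 10 h and 25.3 in the fasted list, belong to peaks of 6.57 and 6.66 normalised tags, and the most tagged peak, of 169.7 at 2 h, has a fold of 2.07.

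Peaks over these genes were met by IgG peaks in 6 of 36 cases in the fasted list (16.7%, 6.37 to 32.8), 18 of 77 at 2 h (23.4%, 14.5 to 34.4) and 13 of 53 at 10 h (24.5%, 13.8 to 38.3). Over all protein-coding genes the shares were 34.6%, 39.9% and 40.1%. Peaks of 1 gene share their transcript, so these peaks are not independent. All but 4 of the 37 met peaks lay over Rictor and Prkaa2; the others were 1 over Rptor and 3 over Rps6kb1.

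Few places recurred between times. After overlapping NONO peaks were merged, the 8 genes had 122 regions, of which 91 were found at 1 time, 21 at 2 and 10 at all 3. The 10 were 6 in Rictor and 4 in Prkaa2, and 5 of them were IgG-free. Of the fasted peaks 47.2% were found again at 2 h (51.9% over all protein-coding genes) and 30.6% at 10 h (40%). Of the 2 h peaks 20.8% were found again in the fasted list (29.4%) and 27.3% at 10 h (40.2%), and of the 10 h peaks 20.8% in the fasted list (29.9%) and 43.4% at 2 h (53.4%). No peak of any list overlapped the window of 300 bases around the start of any of the 8 genes in the RefSeq promoter table. The nearest was an IgG peak 146 bp from the Tsc1 window, and the nearest NONO peak, at 2 h, was 256 bp from the Rps6kb1 window. Both lay outside the gene bodies and are not among the peaks counted above. Of the NONO peaks over the genes, the nearest was 561 bp away, at Prkaa2 at 2 h.

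The wider pathway was described through 69 other genes. An IgG-free peak lay over 34 of them in the fasted list, 36 at 2 h and 36 at 10 h, an IgG peak over 43, which is 49.3%, 52.2%, 52.2% and 62.3% of them beside 26.4%, 31.3%, 30.0% and 34.6% of all protein-coding genes, and 17 had no peak in any list. At 2 h over fasted, 21 of 45 were past 2-fold higher and 3 lower, with a median log2 ratio of 0.85; that is 46.7% higher, near the 43.4% of all genes. At 10 h over fasted, 11 of 45 were higher and 6 lower (24.4% and 13.3%, beside 35.0% and 10.7% of all genes; median 0.67), and at 10 h over 2 h, 3 of 46 were higher and 14 lower (6.52% and 30.4%, beside 14.7% and 23.7%; median -0.53). Deptor, an inhibitory subunit of both mTOR complexes, had 532, 1678.1 and 674 normalised tags at the 3 times and 245 with IgG, and in IgG-free peaks 244, 806 and 340. Its log2 ratios were 1.64 at 2 h over fasted and -1.30 at 10 h over 2 h.

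Prkag2, a regulatory gamma subunit of AMPK, had 379, 1029.9 and 832 normalised tags at the 3 times and 692 with IgG. Over all peaks its log2 ratio over fasted was 1.42 at 2 h and 1.11 at 10 h. The rise was smaller in IgG-free peaks, with 143, 228 and 292 normalised tags. Mapkap1, which encodes a subunit of the rictor complex, had 253, 551 and 451 and 143 with IgG, with 1.09 at 2 h over fasted. Its IgG-free peaks held 206, 320 and 330, also a smaller rise. The other named genes were not past 2-fold in any comparison. Fnip1 and Fnip2, partners of folliculin in amino acid sensing, had 428, 567 and 693 (492 with IgG) and 413, 717 and 429 (360 with IgG). Ulk2, a kinase that starts autophagy, had 528, 621 and 554 and 170 with IgG. Over all peaks, Deptor and Prkaa2 had their highest NONO level at 2 h and Fnip1 at 10 h. In IgG-free peaks Deptor and Prkaa2 were again highest at 2 h. Fnip1 was then highest in the fasted list, with 402, 369 and 339 normalised tags at the 3 times.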

How the data were processed

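The data are NONO and IgG immunoprecipitates of RNA from mouse liver nuclei, with their inputs, as 4 peak lists, 1 library per group. Stranded total RNA libraries with ribosomal RNA removal were read with FastQC 0.11.2, STAR 2.4.0k, HOMER and mm10, per the submitters' processing notes. The authors' peak calls used both strands, windows of 500 bp and a joining distance of 1000 bp, and required 2-fold over the library's own input and 11 tags (8 for IgG), per the file headers. The deposited signal is tags per 10000000 library tags, per the file headers. The deposited tag count is unscaled for the 10 h and IgG immunoprecipitates, and in the other lists the authors scaled it to the input. The deposited fold is the authors' ratio to input, the deposited score is HOMER's, and the authors' deposited p-value was not used. Score and fold were used only inside 1 list, for ranking and filtering.

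Tags were recovered as the signal times the library total, with exact 95% Poisson intervals. Shares have exact Clopper-Pearson intervals. Recovered tags of a listed peak can lie below the authors' limit of 11 (8 for IgG), as in Mtor with 9 at 10 h and 7 with IgG. The reason was not tested. Ratios of times use a pseudocount of 10, and 2-fold is called. Gene bodies are those of GENCODE M21. The result of 1 marker list is not reported here. The genes and lists were chosen with earlier results of these data known. Named beside the 8 genes are the 6 other pathway genes with most IgG-free tags at any 1 time and the 3 genes of like length closest to the gene with most IgG-free peaks. Printed stretches depart from the intended most tagged IgG-free peaks, since only transcript sequences were used here. Alternatives were fold 3, equal list lengths, midpoint counting, peaks over 1 gene only, 50% overlap, pseudocount 1, IgG-free peaks, and tags per tags in peaks; the IgG level outside Rn7sk was added after the data were seen. Overlap and counting steps were tested on simulated data. Python 3.11.15, numpy 2.4.6, pandas 2.3.3, scipy 1.17.1 and matplotlib 3.10.9 were used.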

Additional observations from a re-analysis of the deposited data

How the results depend on the processing

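No paired analysis was possible because groups consist of 1 library only, and for the same reason no library could be left out of a group. Over the 8 genes, IgG-free peaks numbered 16 in the fasted list at 3-fold over input (30 at 2-fold), and 25 at 2 h and 25 at 10 h with lists of equal length (59 and 40). Genes past 2-fold higher at 2 h over fasted were 2 per tags in peaks and 4 in IgG-free peaks, at 3-fold over input and with lists of equal length, against 6. Genes past 2-fold lower there were 2 with lists of equal length and 1 per tags in peaks, against none. At 10 h over fasted 4 genes were higher at 3-fold over input, against 2, and 1 was lower with lists of equal length, with a pseudocount of 1 and per tags in peaks. At 10 h over 2 h, 1 was higher at 3-fold over input and 1 with lists of equal length, against none. The median at 10 h over fasted turned to -0.14 per tags in peaks, and the medians of all genes to -0.01 (2 h over fasted) and 0.19 (10 h over 2 h); this scaling divides by a total that the 2 h library has most of. With lists of equal length Rptor turned to -1.26 at 2 h over fasted and 1.42 at 10 h over 2 h. The share of peaks met by IgG was 5.88% (fasted), 10.6% (2 h) and 12.5% (10 h) at 3-fold over input, and 13% at 2 h where IgG had to cover 50% of the peak. Of 2 h peaks, 9.09% were found again in the fasted list and 15.6% at 10 h at 50% overlap. The cause of the other differences was not tested. Among the ratios of single genes, midpoint counting left all 24 on the same side of 2-fold. Depth limits Tsc2 and Prkaa1 most, with 12 and 13 tags at 10 h.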
